A study of Mus musculus with 16 samples.

Results

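Trimethylated lysine 9 of histone H3 (H3K9me3) differed between a knockout library of NCoR1 and a wild-type library of intestinal epithelium at 2390 listed regions, of 23511 regions listed for the 6 histone marks of the study. All regions of both deposited H3K9me3 lists were taken. The knockout library stood above the wild-type library at 1816 of them (KO-higher regions), and the wild-type library stood above the knockout library at 574 (WT-higher regions). Each list therefore holds places where the libraries differ, and a place where both libraries carry H3K9me3 alike is in neither.

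The epithelial cells came from the jejunum of C57BL/6 neonates at postnatal day 12. The wild-type mice are labelled F/FUN and the knockout mice ΔIECUN, with deletion of Ncor1 in intestinal epithelial cells. The labels leave out the Cre line behind that deletion, the meaning of the suffix UN, the sex of the pups and the number of pooled animals. There was 1 H3K9me3 library per genotype, made with the antibody ab8898, so no difference has a replicate check and no p-value is given; intervals cover counting error only. The listed regions hold differences alone, so the labelled cell type could not be checked on its defining markers with them.

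H3K9me3 is the mark of constitutive heterochromatin, the compacted chromatin of pericentromeric repeats, transposable elements and silenced gene families. It is written by enzymes such as SUV39H1, SUV39H2 and SETDB1 and read by HP1 proteins. NCoR1 is a corepressor that nuclear receptors recruit together with the histone deacetylase HDAC3; in the intestine it serves receptors that control lipid, bile acid and drug metabolism. It removes acetyl groups through HDAC3 and is not itself a methyltransferase.

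The 3 KO-higher regions with the highest fold outside the stretches described further on show what these regions look like, together with the KO-higher region made of the most repeated sequence. The bases are from the plus strand of mm9, 5′ to 3′, with each CG dinucleotide, the usual site of DNA methylation, in capitals.
KO-higher region, chrX:113880363-113880535: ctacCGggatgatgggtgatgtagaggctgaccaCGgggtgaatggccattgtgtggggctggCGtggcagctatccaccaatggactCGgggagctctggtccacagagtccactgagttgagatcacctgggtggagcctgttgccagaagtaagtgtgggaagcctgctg
KO-higher region, chr10:72101903-72102048: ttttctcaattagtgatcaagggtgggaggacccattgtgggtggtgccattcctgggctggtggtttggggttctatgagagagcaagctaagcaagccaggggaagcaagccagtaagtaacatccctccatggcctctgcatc
KO-higher region, chr4:31951853-31952026: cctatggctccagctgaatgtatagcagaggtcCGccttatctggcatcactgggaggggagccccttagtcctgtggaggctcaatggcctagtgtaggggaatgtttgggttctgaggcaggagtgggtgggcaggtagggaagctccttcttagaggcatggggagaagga
KO-higher region, chr11:108318819-108319028: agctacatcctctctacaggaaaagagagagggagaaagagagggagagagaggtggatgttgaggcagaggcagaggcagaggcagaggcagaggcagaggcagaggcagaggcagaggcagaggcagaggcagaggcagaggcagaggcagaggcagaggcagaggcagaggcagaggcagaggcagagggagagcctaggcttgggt
Each of the first 3 occurs once in the assembly, and the second of them holds 0 CG dinucleotides although its GC content was 52.7%. In the fourth, from an intron of Ccdc46, 80.9% of the bases match the base 6 positions further on, and its 50-base words had a median of 21419 copies in the assembly.

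The WT-higher regions with the highest fold follow, with a region from a block of chromosome 17 in which several marks were higher in the wild type.
WT-higher region, chr5:4053744-4053955: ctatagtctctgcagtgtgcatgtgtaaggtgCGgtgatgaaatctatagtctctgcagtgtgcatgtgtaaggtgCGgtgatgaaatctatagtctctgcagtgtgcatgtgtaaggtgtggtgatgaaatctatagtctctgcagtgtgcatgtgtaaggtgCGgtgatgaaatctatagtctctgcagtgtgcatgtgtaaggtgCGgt
WT-higher region, chr15:95976358-95976519: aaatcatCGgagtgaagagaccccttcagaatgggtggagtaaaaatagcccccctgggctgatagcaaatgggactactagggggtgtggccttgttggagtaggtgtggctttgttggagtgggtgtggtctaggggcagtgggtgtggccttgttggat
WT-higher region, chr4:13884408-13884577: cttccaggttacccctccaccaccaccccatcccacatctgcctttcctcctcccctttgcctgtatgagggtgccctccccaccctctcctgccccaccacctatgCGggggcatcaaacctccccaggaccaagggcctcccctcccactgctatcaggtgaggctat
WT-higher region, chr17:6491715-6491979: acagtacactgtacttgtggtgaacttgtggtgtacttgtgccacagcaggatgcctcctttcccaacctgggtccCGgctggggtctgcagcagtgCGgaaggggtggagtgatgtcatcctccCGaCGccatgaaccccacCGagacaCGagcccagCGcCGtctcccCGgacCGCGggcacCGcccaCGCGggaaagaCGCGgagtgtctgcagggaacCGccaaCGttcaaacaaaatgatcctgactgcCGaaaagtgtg
The first lies in an intron of Akap9, a scaffold protein gene of the centrosome and Golgi, and is a tandem repeat in which 98.8% of the bases match the base 44 positions further on. The last holds 19 CG dinucleotides in 265 bases, against 1 in each of the regions between genes whose nearest starts are those of Arid2 and Runx1t1, 141496 and 68101 bp away.

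The KO-higher regions were weak, narrow peaks over a low background. The pileup, the number of sequenced fragments over the summit, had a median of 17 in the knockout library. The background that the peak caller drew from the wild-type library had a median of 2.93, and the fold, which is the pileup plus 1 over the background plus 1, a median of 4.33. In the WT-higher regions the wild-type pileup had a median of 24.9 over a knockout background of 6, for a median fold of 3.71. Of the KO-higher regions 39.5% (95% Wilson interval 37.3 to 41.8) had a background of 2.5 or less, against 15.9% (13.1 to 19.1) of the WT-higher regions. A background of 10 or more was found for 2.64% of the KO-higher and 27.2% of the WT-higher regions. The background is the highest of the genome-wide and local means of the other library, so its lowest values, 1.77 and 1.86 tags, are near the genome-wide means. KO-higher regions thus lay more often where the other library gave little more than its mean, and WT-higher regions more often where both libraries had signal.

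The median region was 151.5 bp long among the KO-higher and 163 bp among the WT-higher regions, close to the modelled fragment lengths of 138 and 145 bp. A −log10 q of 5 or more was reached by 28.0% of the KO-higher (508 regions) and 34.7% of the WT-higher regions (199 regions). A pileup of 40 or more was reached by 25 KO-higher and 68 WT-higher regions. The libraries held 29503438 tags (knockout) and 31471976 tags (wild type), of which 81.1% and 77.9% remained after removal of duplicates. Broad region calling was off, per the file headers, so wide domains of H3K9me3 were not called as such.

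**Figure D1:**
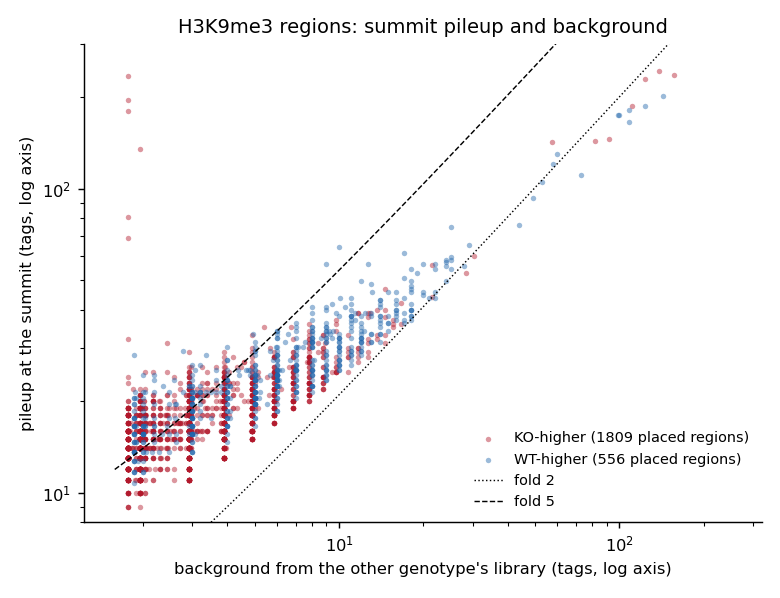
Pileup at the summit in the library that was higher (vertical, tags, log axis) against the background from the other genotype's library (horizontal, tags, log axis), 1 point per placed region; lines mark folds of 2 and 5. KO-higher regions have a median background of 2.93 and WT-higher regions one of 6, and a few red points with pileups up to 235 stand far above the line of fold 5; they lie at Vil1 and Mt1.

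KO-higher regions lay on every chromosome used. On the 18 autosomes used there were 0.713 KO-higher regions per Mb of assembled sequence (95% Poisson interval 0.679 to 0.748) and 0.207 WT-higher regions per Mb (0.189 to 0.227). Chromosome 15 had the highest autosomal density in both directions, at 0.946 KO-higher (0.765 to 1.16) and 0.368 WT-higher regions per Mb (0.259 to 0.508). Its span from Cdh9 to Acot10, described further on, held 15 of the chromosome's 37 WT-higher and 10 of its 95 KO-higher regions. Chromosome 19 had the lowest KO-higher density, 0.327 per Mb (0.197 to 0.510). Chromosome X carried 1.02 KO-higher regions per Mb (0.869 to 1.19), 1.43 times the autosomal density, and 0.481 WT-higher regions per Mb (0.380 to 0.601), 2.32 times the autosomal density. The X chromosome was thus denser in both directions, with intervals that did not reach those of the pooled autosomes. The intervals of chromosome 15 alone overlapped those of X in both directions. KO-higher regions made up from 63.3% of all H3K9me3 regions on chromosome 19 to 85.4% on chromosome 14.

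The density of KO-higher regions followed the gene content of the chromosome. Over the 18 autosomes Pearson's r with protein-coding genes per Mb was -0.71 and Spearman's rho -0.79 for KO-higher regions, and 0.07 and 0.11 for WT-higher regions. These are descriptions: all chromosomes come from the same pair of libraries. The gene-rich chromosomes 7 and 11 had 0.585 and 0.606 KO-higher regions per Mb, and the gene-poor chromosomes 1 and 3 had 0.904 and 0.844.

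**Figure D2:**
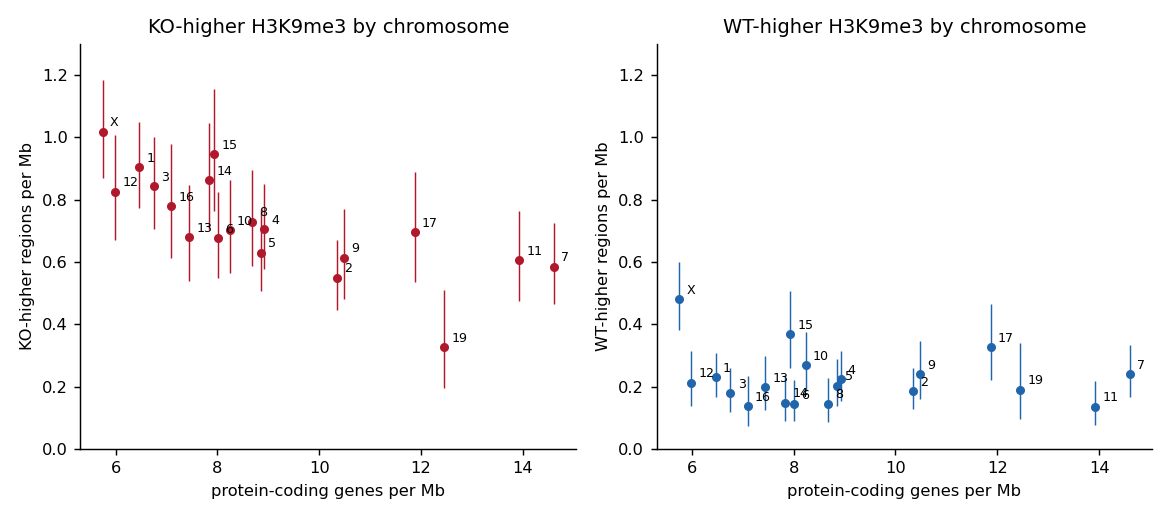
Regions per Mb (vertical) against protein-coding genes per Mb (horizontal) for each chromosome used, KO-higher on the left and WT-higher on the right; bars are 95% Poisson intervals. KO-higher density falls from 1.02 on chromosome X to 0.327 on chromosome 19, whereas WT-higher density stays between 0.135 and 0.368 on the autosomes.

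The same relation held in windows of 1 Mb. Windows without a protein-coding start held 1.38 KO-higher regions per Mb (1.24 to 1.53), those with 1 to 2 starts 1.13, with 3 to 5 starts 0.793, and with 6 to 9 starts 0.484 (0.423 to 0.550). Windows with 10 to 19 starts held 0.385 and those with 20 or more 0.423 (0.352 to 0.504). WT-higher density ran from 0.175 to 0.310 per Mb over the same classes with no such order. Gene-poor windows, those with 0 starts, make up 10.7% of the assembled sequence and held 20.2% of the KO-higher (18.4 to 22.1) and 14.7% of the WT-higher regions (12 to 17.9). Gene-dense windows, with 10 or more starts, make up 32.0% and held 17.4% (15.7 to 19.2) and 31.8% (28.1 to 35.8). On autosomes alone the gene-poor shares were 20.6% and 15.1%.

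The KO-higher regions of the window classes resembled each other in strength. Their median fold was 4.33 in gene-poor, 4.40 in intermediate and 4.08 in gene-dense windows. Their median background was 2.93, 2.93 and 3.11 tags in the same order. The share of KO-higher regions built mostly of words found once in the assembly was 89.9% in gene-poor and 77.5% in gene-dense windows.

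Regions of the other marks were scarcer in gene-poor windows than the 10.7% of sequence there, except in the shortest list. The lists of H3K4me1, H3K9ac, H3K27ac and H3K27me3 and the WT-higher H3K4me3 list, marks of enhancers, active promoters and Polycomb silencing, had between 0.0531% and 1.71% of their regions in gene-poor windows. The KO-higher H3K4me3 list, with 131 regions, had 12.2% there (7.66 to 18.9).

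**Figure D3:**
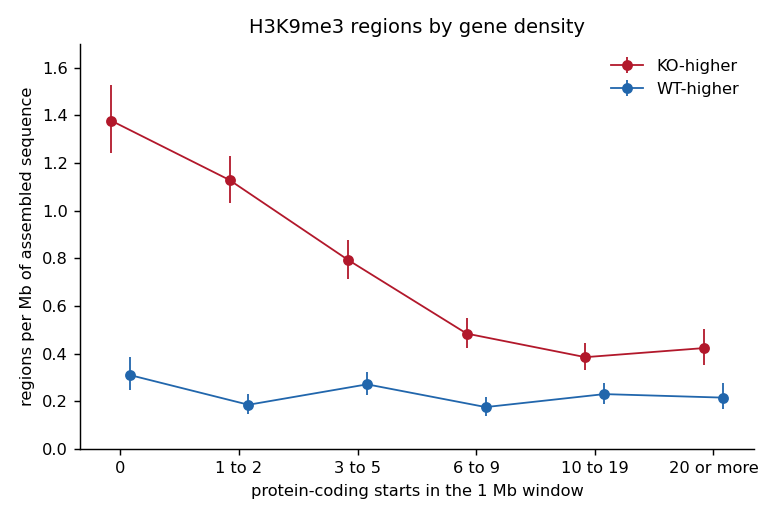
H3K9me3 regions per Mb of assembled sequence (vertical) by the number of protein-coding starts in the 1 Mb window (horizontal); bars are 95% Poisson intervals. KO-higher density falls from 1.38 to about 0.4 (0.385 and 0.423 in the last classes), and WT-higher density stays between 0.175 and 0.310.

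KO-higher regions lay far from protein-coding starts. The median distance from summit to the nearest protein-coding start was 130740 bp (116659 to 144778) for KO-higher regions and 57724 bp (48486 to 73833) for WT-higher regions. Positions every 100 kb over the assembly, a regular grid of 24676 positions, had a median of 48907.5 bp. Within 10 kb of a start lay 11.1% of the KO-higher regions (9.69 to 12.6), 17.6% of the WT-higher regions (14.7 to 21.0) and 21.2% of the grid. Over 500 kb from any start lay 17.4% of the KO-higher, 13.5% of the WT-higher regions (10.9 to 16.6) and 8.92% of the grid. The grid's median thus lay within the interval of the WT-higher median and well below that of the KO-higher median, while the share over 500 kb away was above the grid's in both lists.

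Between genes lay 72.5% of the KO-higher (70.4 to 74.5) and 75.9% of the WT-higher regions (72.2 to 79.3), against 60.1% of the grid. Introns held 24.3% of the KO-higher and 18.5% of the WT-higher regions, and 34.3% of the grid. At promoters, within 1 kb of a start, lay 24 KO-higher regions (1.33%, 0.893 to 1.97) and 20 WT-higher regions (3.6%, 2.34 to 5.49), against 3.26% of the grid.

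**Figure D4:**
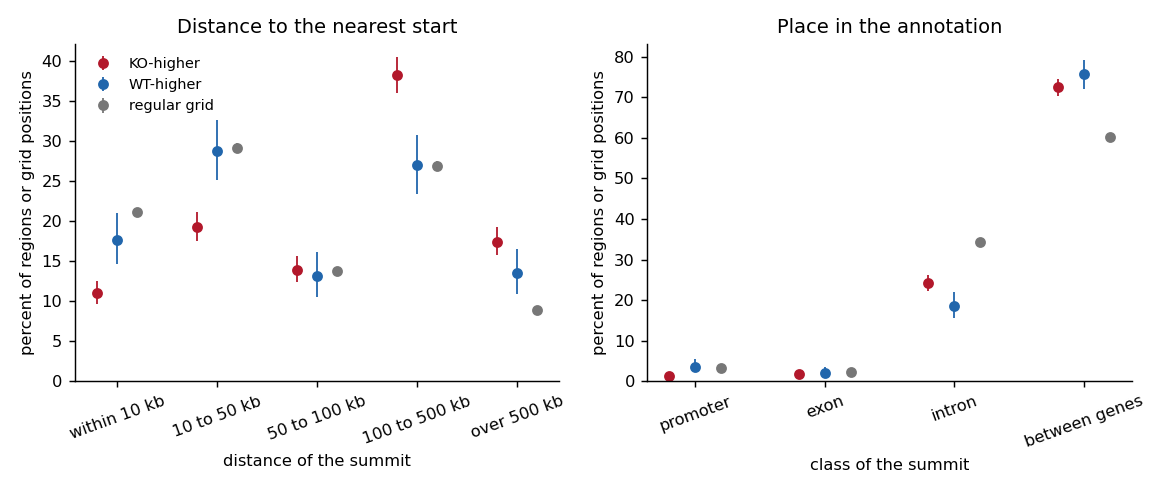
Percent of KO-higher regions, WT-higher regions and regular grid positions (vertical) by distance to the nearest protein-coding start (left) and by place in the annotation (right); bars are 95% Wilson intervals. KO-higher regions exceed the grid at 100 to 500 kb (38.3% against 26.9%) and beyond 500 kb, and fall below it within 50 kb.

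Several KO-higher regions were at promoters. The highest folds there outside Vil1 and Mt1 were at Cdh7, a neuronal cadherin gene, with a knockout pileup of 22 over a wild-type background of 2.03 (fold 7.59), and at a start of Hdac9, a class IIa histone deacetylase, with 20 over 1.77 (fold 7.57). A further start of Hdac9 had a KO-higher region of fold 5.41. Tek, the angiopoietin receptor of endothelium, had a fold of 4.74, and Fzd3, a Wnt receptor, 3.06. Among the WT-higher promoters, Alg13, an enzyme of N-glycan assembly, had a wild-type pileup of 17.6 over 2 (fold 6.19) and Piga, an enzyme of GPI anchor synthesis, 14.6 over 2 (fold 5.21); both genes are X-linked. Grik2, a glutamate receptor gene, had a fold of 3.58 and Nlk, a serine/threonine kinase of the Wnt pathway, 3.42. No gene had a promoter region in both directions. With 24 and 20 such regions among 21693 genes, few or none would be shared in any case.

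The bases of both lists were richer in G and C than the grid. The median GC content was 53.5% for KO-higher (53.3 to 53.6) and 55.9% for WT-higher regions (55.5 to 56.4), against 41.9% for the grid. A GC content of 50% or more was found in 88.7% of the KO-higher regions, 94.8% of the WT-higher regions and 17.4% of the grid. In gene-poor windows the KO-higher median was 52.9%, so the high GC content was present there too. The ratio of observed to expected CG dinucleotides was 0.167 in KO-higher, 0.304 in WT-higher regions and 0.143 on the grid. KO-higher regions were thus GC-rich, with a ratio of observed to expected CG dinucleotides slightly above that of the grid. The ratio allows for the C and G content, so it does not give the number of CG dinucleotides. The GC content of the input libraries was not analysed here, and its part in the lists was not tested.

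Repeated sequence distinguished the lists. Regions in which at least 50% of the 50-base words occur once in the assembly made up 86.6% of the KO-higher (85.0 to 88.1), 66.2% of the WT-higher regions (62.2 to 70.0) and 89.3% of the grid. A median of 10 or more copies was found in 6.30% of the KO-higher (114 regions), 16.7% of the WT-higher regions (93) and 6.51% of the grid. In the repeated WT-higher regions the knockout background had a median of 8 tags, against 5 in the single-copy ones. KO-higher regions with 10 or more copies lay on X in 21.9% of cases, against 8.04% of the single-copy ones. In the first 5 Mb of assembled sequence, the centromere side of mouse chromosomes, lay 4.42% of the KO-higher (3.57 to 5.47) and 7.01% of the WT-higher regions (5.17 to 9.45), against 3.8% of the assembly. How reads with several matches were placed is not stated in the labels or headers.

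Most regions stood alone. With a gap of up to 10 kb, 95.3% of the KO-higher (94.2 to 96.1) and 94.6% of the WT-higher regions (92.4 to 96.2) had no neighbour of their own direction. Clusters of 3 or more held 18 KO-higher regions in 3 clusters (0.991%) and 19 WT-higher regions in 5 clusters (3.31%). Among 2493 windows of 1 Mb, 1091 held a KO-higher and 464 a WT-higher region, and 229 held both. No KO-higher region overlapped a WT-higher region, which nearly follows from calling each library over the other. Of the KO-higher regions 11 lay within 10 kb of a WT-higher one (0.606%, against 0.413% of grid positions).

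The densest KO-higher cluster lay at the 5′ end of Vil1, which encodes villin, an actin-binding protein of the brush border. It held 11 regions between chr1:74448574-74461721. The knockout pileups ran from 12 to 196 over wild-type backgrounds of 1.77 to 1.95, for folds of 4.69 to 71.0. Mt1, the metallothionein 1 gene, carried the highest fold of all, 85.1, in a single region of 1301 bp at chr8:96703140-96704440, with a pileup of 235 over 1.77. These regions were also longer than the rest, up to 1848 bp at Vil1. The same places were KO-higher in other marks: the Vil1 5′ end held 8 H3K4me3, 10 H3K9ac and 12 H3K27ac KO-higher regions and 0 in any WT-higher list, and Mt1 held 1 H3K4me3 and 2 H3K27ac regions. Marks of active and of silent chromatin were thus higher in the same library there. Transgenes that drive Cre in intestinal epithelium commonly carry a copy of the Vil1 5′ end; the labels do not name the driver, and the copy number of this sequence in each library was not tested. Without these stretches and the WT-higher ones below, 1804 KO-higher and 557 WT-higher regions remained, and the highest KO-higher fold was 9.32, on X between genes and 317881 bp from the nearest start, that of Cpxcr1.

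The densest WT-higher cluster in 1 Mb was a block of chromosome 17 with the genes of the dynein light chain family Dynlt1 and copies of Tmem181. It held 11 WT-higher and 0 KO-higher regions between chr17:6321621-6533936, with wild-type pileups of 15.6 to 56.6 over knockout backgrounds of 2 to 13 and folds of 3.56 to 5.76. All 6 marks had WT-higher regions there, with 48 H3K4me1, 29 H3K4me3, 33 H3K9ac, 27 H3K27ac and 30 H3K27me3 regions, and none of the KO-higher lists of H3K4me3, H3K9ac, H3K27ac and H3K9me3 had a region. For H3K4me1 and H3K27me3 no separate KO-higher list was used. Of these 11 regions 10 lay in the gene Gm2792. The annotation repeats sequence here, and several of the regions consist of words found 2 or 3 times in the assembly. In those regions reads of near-identical copies cannot be told apart. Others, among them the region with the highest fold (5.76), consist of words with a median of 1 copy. The copy number of the block in each library was not tested.

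At the end of X, 6 WT-higher regions lay in Mid1, a ubiquitin ligase gene that spans the boundary of the pseudoautosomal region in the mouse, between chrX:166418830-166428273. Their wild-type pileups were among the highest, from 75.1 to 203, over knockout backgrounds of 25.1 to 143, so that the folds were only 1.42 to 2.91. The WT-higher lists of H3K4me3 (6 regions), H3K4me1, H3K9ac, H3K27ac and H3K27me3 (1 each) had regions there too. The third WT-higher cluster on the mouse chromosomes, 3 regions between chr5:4053213-4054345 in Akap9, held the highest WT-higher fold, 10.23.

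**Figure D5:**
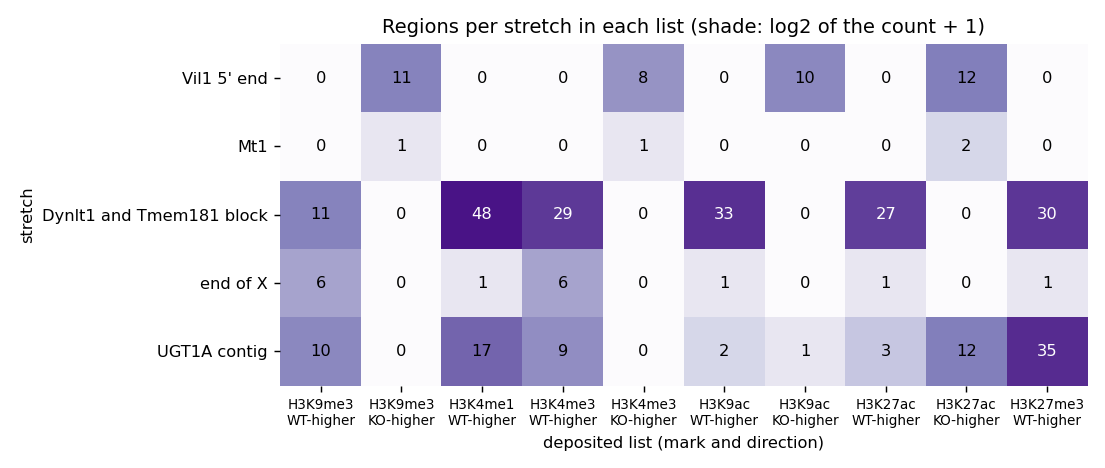
Number of regions (printed in each cell; shade is log2 of the count + 1) in 4 stretches of mouse chromosomes and the UGT1A contig (vertical) for each of the 10 lists without repeats (horizontal). The Vil1 5′ end and Mt1 are filled in KO-higher lists, and the Dynlt1 and Tmem181 block and the end of X in WT-higher lists.

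Other dense places held H3K9me3 regions outside these stretches. A megabase of chromosome 6 with 1 protein-coding start held 8 KO-higher and 0 WT-higher regions, with folds of 3.82 to 7.21. It lies at Foxp2, a transcription factor of brain and lung, whose body held 6 KO-higher regions. On chromosome 13, a megabase around Ofcc1 held 7 KO-higher and 1 WT-higher region. The span of chromosome 15 from Cdh9 to Acot10, with Cdh10 between them, gave both directions. Its megabase at 19 Mb, without a protein-coding start, held 8 WT-higher and 2 KO-higher regions, with WT-higher folds of 2.79 to 6.14. There the wild-type pileups were 12.7 to 27.3 and the knockout backgrounds 1.86 to 6. A KO-higher cluster of 4 regions lay in Camk2b, a calmodulin-dependent kinase of neurons, with pileups of 27 to 60 and folds of 1.95 to 3.75. At Sfi1, a centrosomal gene, 4 KO-higher regions had folds of 1.51 to 1.86, and the one with the lowest fold had a pileup of 237 over a background of 157.

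A gene was counted when the nearest protein-coding start of a region was its own and lay within 50 kb. By this rule 495 of 21693 genes (2.28%) had a KO-higher and 236 (1.09%) a WT-higher region. By overlap with the gene body the shares were 1.75% (379 genes) and 0.512% (111 genes). Genes with a region in their body were long: their median length was 215 kb for KO-higher and 151 kb for WT-higher regions, against 15.3 kb for all genes. A body of 500 kb or longer was found in 198 genes, of which 102 (51.5%, 44.6 to 58.4) held a KO-higher and 19 (9.60%) a WT-higher region. Per Mb of gene body, genes shorter than 100 kb held 0.292 KO-higher regions (0.241 to 0.350), genes of 100 to 500 kb held 0.517, and longer genes 1.02 (0.875 to 1.18). WT-higher densities were 0.121, 0.157 and 0.140 per Mb in the same order. KO-higher density thus rose with gene length even per Mb, up to that of windows with few genes.

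The list of neuronal adhesion genes, chosen with earlier results of these data known, had 25 of 34 members with a KO-higher region in the body and 2 with a WT-higher one. Its genes are long, with a median of 1077 kb. They held 1.26 KO-higher regions per Mb (0.924 to 1.67), against 0.963 (0.805 to 1.14) in the other genes of 500 kb or longer, so the intervals overlapped. The share of genes with at least 1 KO-higher region was 73.5% (56.9 to 85.4) in the list and 47.1% (39.7 to 54.5) in those other genes. These intervals did not overlap, but such a share also rises with gene length, which was not matched. The 34 listed genes span 37.4 Mb and the 170 others 136 Mb. Because the list was chosen with earlier results known, no excess in these genes is read from the share. Ptprd, a receptor tyrosine phosphatase of synapses, held 4 KO-higher regions, the strongest with a knockout pileup of 22 over 2.71 (fold 6.21). Nrxn3, a presynaptic neurexin, held 3 KO-higher and 2 WT-higher regions, with folds up to 5.88 and 5.99. The WT-higher region of fold 5.99 lies in repeated sequence, with a median of 207.5 copies of its 50-base words. Cntn4, Pcdh9, Csmd1, Sgcz and Magi2 held 3 KO-higher regions each. By start within 50 kb, 10 members had a KO-higher and 1 a WT-higher region.

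The gene families known as H3K9me3 targets are set here beside the 2.28% (KO-higher) and 1.09% (WT-higher) of all genes. Of 1113 olfactory receptor genes, which are silenced by H3K9me3 heterochromatin in olfactory neurons, 34 had a KO-higher (3.05%, 2.19 to 4.24) and 12 a WT-higher region (1.08%). Of 326 vomeronasal receptor genes 6 (1.84%) had a KO-higher and 9 (2.76%, 1.46 to 5.16) a WT-higher region, and of 356 genes of the Zfp family, zinc finger genes of which many carry H3K9me3 over their last exons, 6 (1.69%) and 4 (1.12%). The X-linked testis families, among them the Mage and Rhox genes, had 6 of 75 members with a KO-higher (8%, 3.72 to 16.4) and 2 with a WT-higher region, on a chromosome where regions of both directions were denser. The strongest were Mageb18 (fold 6.13), Ssxa1 (4.06) and Rhox2h (3.88) among KO-higher and Luzp4 (3.46) among WT-higher regions. Of 22 germline genes 1 had a KO-higher (4.55%, 0.807 to 21.8) and 2 a WT-higher region (9.09%, 2.53 to 27.8). Piwil1, which binds piRNAs in spermatids, had KO-higher regions of fold 3.57 and a WT-higher region of fold 2.30. Stag3, a meiotic cohesin subunit, had a WT-higher region of fold 2.49. Of 32 Polycomb target genes 3 had a KO-higher region (9.38%, 3.24 to 24.2), among them Irx3 and Sim1. Pax2 was the 1 member with a WT-higher region (3.13%, 0.554 to 15.7). The germline and Polycomb lists are short, so their shares rest on few genes.

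At genes of intestinal function the counts were too small to be set apart from the 2.28% and 1.09% of all genes. Of the LXR and FXR genes, the oxysterol and bile acid receptor pathways, 1 of 20 had a KO-higher region: Slc10a2, the ileal bile acid transporter, with a pileup of 12 and a fold of 4.40. No region of either direction was assigned to the 30 PPAR genes, the 33 detoxification genes, the 22 genes of suckling and adult enterocytes or the 20 imprinted genes. The 55 Hist1 genes, the 7 secretory and the 7 immune markers had none either. Of 21 enterocyte identity genes only Vil1 had regions. Of 8 stromal markers Col3a1, a fibrillar collagen, had 1 KO-higher region with a pileup of 18 and a fold of 6.85; a single region says nothing of how many stromal cells a library held. Of 26 genes of the H3K9 methylation machinery 1 had a KO-higher and 2 a WT-higher region. Setdb1 had a KO-higher region of fold 5.28 and a WT-higher region of fold 5.34 near its start, both in repeated sequence. Atrx, a chromatin remodeller, had a WT-higher region of fold 2.16. Ncor1 itself had no region in either direction; the nearest KO-higher region lay 1179633 bp from its start. These lists do not measure the deletion.

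Few H3K9me3 regions overlapped a region of another mark, but in both lists the share was above that of the grid. At least 1 bp was shared with a region of any other mark by 24 KO-higher (1.32%, 0.890 to 1.96) and 33 WT-higher regions (5.75%, 4.12 to 7.96). Outside the stretches named above and the UGT1A contig these numbers were 13 of 1804 (0.721%) and 14 of 547 (2.56%), against 0.340% of grid positions. Within 10 kb of a region of another mark lay 5.51% of the KO-higher and 13.8% of the WT-higher regions, against 10.5% of grid positions. The WT-higher H3K4me3 list shared 25 regions with the WT-higher H3K9me3 list, which is 4.36% of the latter and 0.600% of the former. Of these 25, 11 lay outside the stretches and the contig. The same H3K4me3 list overlapped 0.0648% of grid positions. The H3K27me3 list shared 12 (2.09% and 3.04%), of which 10 lay in the stretches or on the contig. It overlapped 0.0122% of grid positions.

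The authors' deposited table gives RNA changes for 1296 protein-coding genes, those joined to H3K4me1 regions, of which 211 (16.3%) had an FDR below 0.05. Of the 34 genes of that table with a KO-higher H3K9me3 region near their start, 1 did: Abca13, an ABC transporter gene, with a log2 value of -2.52 in the authors' deposited table (FDR 3.66e-15). Of the 16 with a WT-higher region near their start, 1 did: Rbfox3, the neuronal splicing factor NeuN, at -2.37 in the authors' deposited table (FDR 2.63e-14). The heading of the deposited table names wild type versus knockout without saying which is the numerator, so no direction is read from the sign.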

How the data were processed

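H3K9me3 was profiled by chromatin immunoprecipitation and sequencing in 1 wild-type and 1 knockout library. Per the submitters' processing notes, reads were handled with CASAVA 1.8.2 and Bowtie2 2.2.9 on mm9, and MACS2 2.1.1 and HOMER 3.12 are named. Per the file headers, MACS 2.0.10.20130419 called each list with 1 genotype's library as treatment and the other's as control, at a q-value of 0.05, keeping 1 tag per position and scaling the larger library to the smaller. The headers give a tag size of 75 bp, and the labels 50 sequencing cycles.

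Each deposited region has a pileup (fragment coverage at the summit, a signal), a fold (a ratio), and −log10 p-value and q-value columns, as the authors' caller gave them. The background was recovered from pileup and fold. The deposited log2 fold changes and their false discovery rate (FDR, a corrected p-value) come from the authors' table joined to the H3K4me1 regions, and its 12 columns of per-library RNA values were not used.

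Regions were annotated with NCBIM37 (mm9) and GENCODE vM1 by Python 3.11.15, pandas 2.3.3 and pysam 0.24.0. A gene-poor window of 1 Mb has 0 protein-coding starts and a gene-dense one 10 or more. Chromosome 18, Y and unplaced sequence were left out of position results: 1809 KO-higher and 556 WT-higher regions were placed, 7 and 8 lay on sequence left out, and 0 and 10 on an extra contig. Copies were counted for 50-base words of the assembly. Of 12 deposited lists, 10 were used, since the knockout lists of H3K4me1 and H3K27me3 hold the regions of the wild-type ones. Intervals are 95% Wilson, exact Poisson or order-statistic intervals. The steps were tested on simulated data. Genes named are Ncor1, those of the regions with the highest folds, those with the most regions, and up to 3 members per gene list, plus promoter regions chosen after their values were seen. The regions, 19 gene lists and stretches were chosen with earlier results of these data known. A few members of the gene lists are not reported here.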

Additional observations from a re-analysis of the deposited data

How the results depend on the processing

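Of 194 values recomputed under 16 other settings, 136 stayed within the counting interval of the reported value (gene counts within 1.5 times), and 58 moved; the cause was not tested. Leaving out chromosome X moved none of 21. At a −log10 q of 5 or more, which keeps 508 and 199 regions, the KO-higher share went from 76.0% to 71.9%. The KO-higher median distance became 156896.5 bp, with 75% between genes, 1.97% in clusters and 2.36% overlapping other marks. KO-higher members of the Zfp, olfactory and neuronal lists fell to 1, 10 and 3. For WT-higher regions the gene-dense share became 36.5%, the overlap 9.05% and the olfactory members 7. At a fold of 3 or more the KO-higher share was 79.9%; WT-higher clusters held 1.71%, their GC median was 55.3%, and Zfp and olfactory members were 2 and 7. With lists of equal length, the KO-higher distance was 153627 bp, with 75.1% between genes, 1.74% in clusters and 2.09% overlapping, and Zfp, olfactory and neuronal members were 1, 14 and 3. Merging neighbours within 1 kb left 0.333% of KO-higher and 1.94% of WT-higher regions in clusters and a KO-higher overlap of 0.833%. Only single-copy regions gave a KO-higher share of 81.0%, 15.6% of them gene-dense; WT-higher clusters were 1.63%, overlap 4.08% and neuronal members 0.

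Windows of 500 kb put 39.4% of KO-higher and 27.7% of WT-higher regions in gene-poor windows, which make up 22.8% of the assembly at that size. Windows of 2 Mb gave 4.75% and 2.52%, against 2.67% of the assembly. Counting all annotated genes gave gene-poor shares of 2.71% and 3.24% (assembly 1.7%) and gene-dense shares of 34.1% and 50.9% (assembly 54.1%). Their median distances were 57450 and 32445 bp, with 69.8% and 69.1% between genes. Gaps of up to 50 kb put 2.37% and 6.97% in clusters. A start within 10 kb left 22 olfactory and 0 neuronal members KO-higher, and 2 Zfp and 7 olfactory members WT-higher. By gene body, 1 olfactory and 25 neuronal members were KO-higher, and 1 Zfp, 1 olfactory and 2 neuronal members WT-higher. Without the stretches shared by marks, an alternative chosen after seeing the data like that of X, clusters held 0.388% and 1.62% and overlaps 0.721% and 3.41%. The settings for windows, annotated genes, gaps, overlap and assignment left the lists at 1816 and 574 regions. Equal lengths sets the numbers alike. Under the remaining settings, which change the lists, KO-higher regions outnumbered WT-higher ones. Wherever the KO-higher gene-poor share was recomputed, it exceeded that of the assembly. It also exceeded the WT-higher share, except with all annotated genes (2.71% against 3.24%), where the intervals overlapped. No paired analysis was possible because the result comes from no test, with 1 library per genotype; for the same reason no library could be left out. What size of difference this depth could show was not tested.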

Other observations

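The assembly used by the authors carries an additional contig named UGT1A, after the UDP-glucuronosyltransferases that conjugate bilirubin and drugs. It held 10 WT-higher and 0 KO-higher H3K9me3 regions, which is 1.74% of the WT-higher list (Wilson interval 0.949 to 3.18). The wild-type pileups ran from 19.5 to 73.2 over knockout backgrounds of 2.30 to 38.0, and the folds from 1.90 to 7.69. Of these regions 6 formed clusters of 3. The contig also held WT-higher regions of H3K27me3 (35), H3K4me1 (17), H3K4me3 (9), H3K27ac (3) and H3K9ac (2). Of the KO-higher lists, H3K27ac had 12 regions there and H3K9ac 1. Its sequence was not used here.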
